A study of Mus musculus with 63 samples.

Results

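The cytosolic ribosomal protein genes were followed through all 63 libraries of the study, with the synaptopodin co-immunoprecipitation (Synpo-coIP) at the centre. Members were the rows whose symbol is Rpl or Rps with a number, an optional letter and an optional paralog ending, the 3 stalk genes Rplp0, Rplp1 and Rplp2, and Rpsa, as long as the deposited annotation calls them protein-coding. This gave 84 of 55291 gene symbols, with 43 genes of the large subunit, 31 of the small subunit, 3 of the stalk and 7 paralogs. Another 6 symbols (Rpl32l, Rpl6l, Rps12l1, Rps3a2, Rps3a3 and Rps4l) fit the pattern but are annotated as pseudogenes and were left out. The rule itself uses symbols and annotation and no measured value, whereas the gene family was taken up with earlier results of these data known.

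The cytosolic ribosome consists of a small subunit, which reads the mRNA, and a large subunit, which joins amino acids, and most of its proteins are present in a single copy. Nearly all mRNAs for these proteins begin with a run of pyrimidines at the cap, the 5′ terminal oligopyrimidine (TOP) motif, through which mTOR and the RNA-binding protein LARP1 control their translation. In neurons, ribosomal protein mRNAs are found in dendrites and axons as well as in the soma. Synaptopodin is an actin-associated protein of the spine apparatus, a stack of endoplasmic reticulum in dendritic spines.

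All libraries came from mouse organotypic entorhino-hippocampal tissue cultures, prepared at postnatal days 3 to 5 from animals of either sex and kept for at least 18 days in vitro. Wildtype (Synpo+/+) cultures were from C57BL/6J mice, and synaptopodin-deficient (Synpo-/-) cultures from B6.129-Synpotm1Mndl/Dllr mice. In lesioned cultures the perforant path was cut by entorhinal cortex lesion (ECL), and they were analyzed 3 days later (3 dp ECL). For the Synpo-coIP, 5 or 6 cultures were pooled per sample, the precleared lysate, which contained cycloheximide, was incubated with beads carrying an antibody against synaptopodin, and an aliquot of the same lysate was sequenced as input. There were 5 lysates from Synpo+/+ control cultures, 5 from Synpo+/+ cultures after ECL and 2 labelled Synpo-/-, whose lesion state the labels do not give. In the regional experiment, each library held the dentate gyrus (DG) or the CA3 area cut from 1 culture. Synpo+/+ cultures gave 2 control and 3 ECL libraries of CA3, and 4 control and 7 ECL libraries of DG. Synpo-/- cultures gave 6 control and 6 ECL libraries of CA3, and 7 control and 4 ECL libraries of DG.

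Total counts were 11601154 to 53682143 in the coIP experiment and 14055930 to 46043990 in the regional experiment. Synpo, the gene targeted in the deficient line, did not fall in libraries with the Synpo-/- label, so the counts do not check the genotype, which is given by label. Levels are CPM, read counts scaled to a common library size, and Synpo had 20.3 to 32.2 CPM in the Synpo+/+ control inputs and 26.4 and 29.9 CPM in the inputs labelled Synpo-/-. In control DG it had 19.1 to 24.5 CPM in Synpo+/+ and 41.0 to 69.3 CPM in Synpo-/- libraries. Prox1, a marker of dentate granule cells, had 120 to 217 CPM in the DG libraries and 12.7 to 44.0 CPM in the CA3 libraries, except for Synpo+/+ DG ECL library 5 with 15.5 CPM, so results that use that library are also given without it. The highest CA3 value of Prox1 belonged to Synpo-/- CA3 control library 1, where the other control CA3 libraries of that genotype had 15.6 to 18.7 CPM. The markers of neurons and glia were detected in both experiments, and since tissue and lysates hold many cell types, fewer cells of a type and less RNA per cell cannot be told apart.

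Sequences near the annotated starts of 7 members are shown because the TOP motif is a run of pyrimidines. A promoter in RefSeq (GRCm38.p6) was found for 64 of the 84 members. Within 50 bases of the annotated start, on the sense strand, 53 of the 64 (82.8%) held a run of at least 8 bases made of C and T alone, against 38.8% of 16802 protein-coding genes with a promoter in the same table. The windows below have 30 bases each, written 5′ to 3′ on the strand of the gene, and the capitals mark the longest run of C and T near the start. The first 4 are the members with the lowest coIP values, Rplp2 is a stalk gene, and Rpl13 and Rps2 are among those with the highest coIP values.
Rpl23 (chr11:97782404-97782433, minus strand): gagtgggcggggCCTCCCgttcatatccca
Rpl27 (chr11:101442193-101442222, plus strand): gtcatcctcgCTCCTCCCTCCacacgccgg
Rpl26 (chr11:68901579-68901608, plus strand): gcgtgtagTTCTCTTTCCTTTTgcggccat
Rps13 (chr7:116334161-116334190, minus strand): tgagtggcgtcaCTTCCTgtgcggcttgat
Rplp2 (chr7:141447636-141447665, plus strand): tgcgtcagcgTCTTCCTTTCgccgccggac
Rpl13 (chr8:123102324-123102353, plus strand): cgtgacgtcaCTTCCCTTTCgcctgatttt
Rps2 (chr17:24720083-24720112, plus strand): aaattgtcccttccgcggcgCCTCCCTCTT
The runs were 14 bases long in Rpl26, 11 in Rpl27, 10 in Rplp2 and Rpl13, and 6 in Rpl23 and Rps13, so long and short runs occurred among the members with the lowest coIP values. In Rps2 the run had at least 10 bases, since it reached the end of the search 50 bases after the start. The run began 42 bases before the annotated start in Rpl27, 16 before it in Rpl13 and 5 before it in Rplp2, and 12, 18, 21 and 40 bases after it in Rps13, Rpl23, Rpl26 and Rps2. The windows of Rpl23, Rpl27, Rpl26 and Rps2 do not hold the annotated start, and none of the runs is shown here to be at the cap. The motif CCGGAAG, the core that ETS factors bind, was searched on both strands from 250 bases before to 50 after the start, and 40.6% of the members held it, against 13.2% of the protein-coding genes. The letters TATAAA were held by 10.9% of the members and by 14.5% of the protein-coding genes. These matches are descriptions of the letters and not of binding.

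Ribosomal protein genes took up a small share of the reads. They held 1.12% to 1.45% of all counts in the 10 Synpo+/+ inputs and 0.552% to 1.04% in the 10 Synpo+/+ coIP samples. The 2 inputs labelled Synpo-/- had 1.23% and 1.27%, and the 2 coIP samples 0.786% and 0.963%. In the regional libraries the share was 1.99% to 3.18%. Per kilobase of the principal transcript, Rps14, a small subunit protein at the mRNA exit, had the highest mean level in the Synpo+/+ control inputs (817 ± 132 CPM per kb, SD, n = 5). Rpl4, which lines the exit tunnel, followed with 665 ± 96.2 CPM per kb, and Rpl3, next to the peptidyl transferase centre, with 436 ± 49.7 CPM per kb. The ranges of mean ± SD overlapped for Rps14 and Rpl4 but not for Rpl4 and Rpl3. Rps14 lies 86956 bases from Synpo on chromosome 18.

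The first comparison was between coIP and input in Synpo+/+ control cultures, which asks which mRNAs are higher or lower in the pull-down than in the lysate. This ratio alone also holds non-specific pull-down, for which the study used Synpo-/- lysates as a correction. Most ribosomal protein mRNAs were lower in the coIP than in the input, with lower members in both subunits, the stalk and the paralogs. Of 82 members tested, 75 were lower and 0 were higher, where 25.5% of 18222 genes tested were lower and 29.6% were higher (quasi-likelihood test of edgeR, called at a Benjamini-Hochberg adjusted p under 0.05 over all genes). The median log2 fold change of the members was -0.84, against 0.04 for all genes, and the members ranged from -1.36 (Rpl23) to 0.26 (Rpl3l). Both genes that were not tested, Rpl10l and Rpl39l, had fewer counts than the filter on low counts requires. The share of counts from mitochondrially encoded genes moved with the fraction, at 2.18% to 2.54% in the Synpo+/+ control inputs and 4.31% to 5.47% in the coIP samples. It was 1.83% to 2.64% and 4.18% to 6.27% after ECL, and 2.29% and 3.04% against 4.15% and 5.15% in the libraries labelled Synpo-/-, with no overlap in any of the comparisons. Its part in the members' values was not tested.

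**Figure D1:**
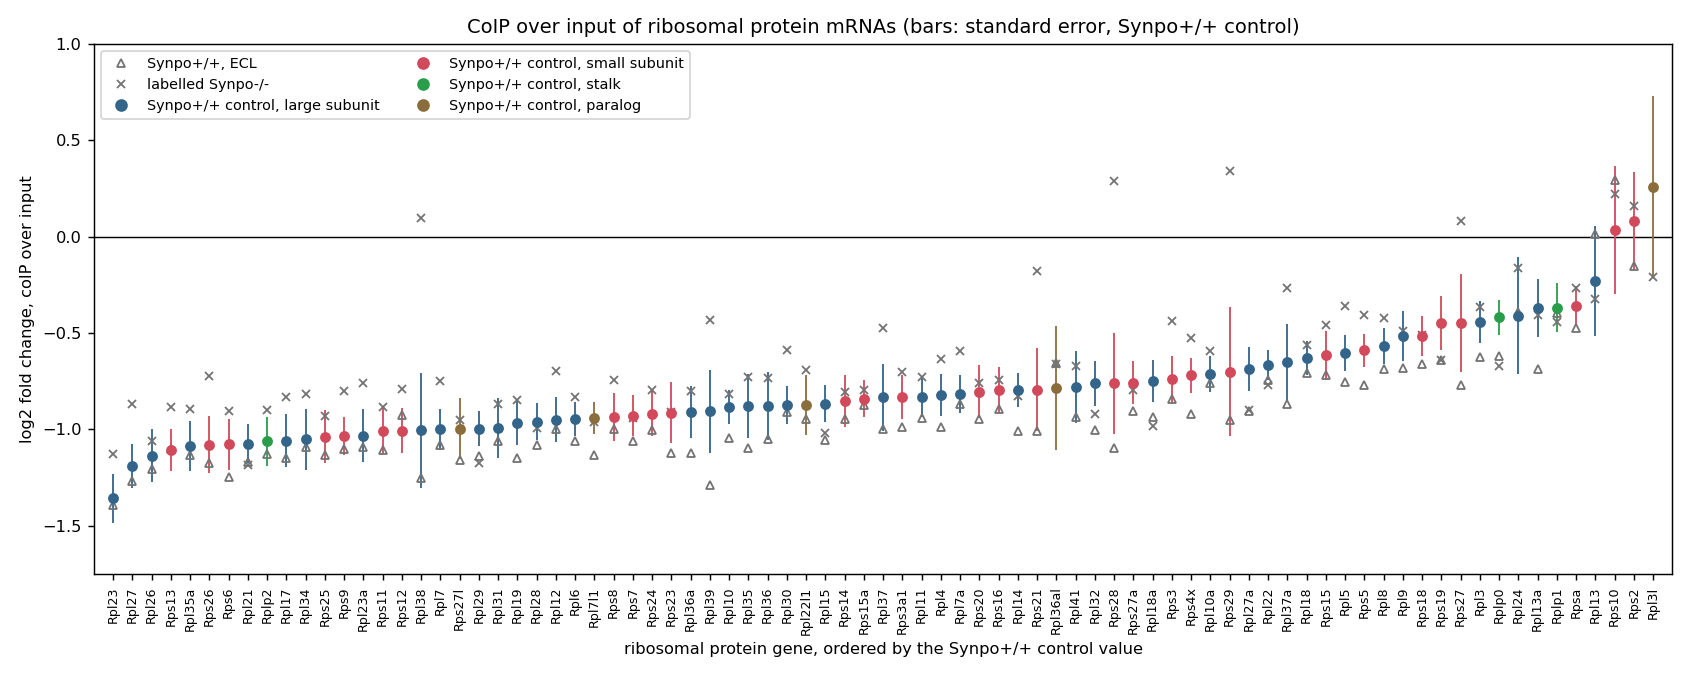
Log2 fold change of coIP over input (vertical axis) for members tested in Synpo+/+ control cultures (horizontal axis), ordered by value. Filled circles with bars are the fitted value and its standard error in Synpo+/+ control cultures, coloured by role, triangles are Synpo+/+ cultures after ECL, and crosses are the libraries labelled Synpo-/-. All but 3 circles lie below 0, and 6 crosses stand above 0, those of Rps29, Rps28, Rps10, Rps2, Rpl38 and Rps27.

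In the large subunit, 41 of 43 genes were lower, with a median of -0.87. Rpl23 (ENSMUSG00000071415.6, GRCm38 chr11:97777527-97782437, minus strand), whose protein also binds MDM2, had 253, 199, 200, 198 and 174 CPM in the 5 inputs and 79.7, 96.1, 58.3, 77.2 and 82.1 CPM in the coIP samples of the same lysates. Every coIP sample lay below every input. The log2 fold change of Rpl23 was -1.36 (SE 0.13, adjusted p 1.05e-06 by edgeR). Next were Rpl27 with -1.19 (SE 0.11) and Rpl26, another protein that binds MDM2, with -1.14 (SE 0.14). Those not called were Rpl13 with -0.23 (SE 0.29) and Rpl24 with -0.41 (SE 0.30).

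In the small subunit, 27 of 31 genes were lower, with a median of -0.81. Rps13 had the lowest value, -1.11 (SE 0.11), and Rps14 had -0.85 (SE 0.14). Rps14 had 689, 553, 499, 524 and 458 CPM in the inputs and 291, 378, 218, 299 and 306 CPM in the coIP samples, and these groups did not overlap. Rps27a, which is made as a fusion with ubiquitin, had -0.76 (SE 0.11) and Rpsa, the laminin receptor gene, -0.36 (SE 0.10), and both were called lower. Rps2, Rps10, Rps27 and Rps29 were not called, with log2 fold changes of 0.08, 0.03, -0.45 and -0.70. Rps2, which sits at the mRNA entry, had 56.96, 69.9, 57.4, 54.7 and 40.6 CPM in the inputs and 32.3, 105, 44.1, 69.9 and 41.1 CPM in the coIP samples. In this gene the coIP samples lay on both sides of the inputs.

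The stalk recruits the translation factors to the large subunit, and its 3 mRNAs were all lower, with unequal values. Rplp2 had a log2 fold change of -1.06 (SE 0.13), whereas Rplp0 had -0.42 (SE 0.09) and Rplp1 -0.37 (SE 0.13, adjusted p 0.0235 by edgeR). Rplp0, the base of the stalk, had 533, 488, 528, 557 and 501 CPM in the inputs and 328, 371, 356, 440 and 431 CPM in the coIP samples, without overlap. Rplp1 had 220, 201, 171, 187 and 152 CPM in the inputs and 128, 172, 107, 154 and 151 CPM in the coIP samples, and here the groups overlapped. With the trend over the summed exon length of the genes removed from each library, the values of Rplp0 and Rplp1 turned to 0.13 and 0.42, and Rplp1 was then called higher.

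Of the 7 paralogs, 5 were tested and 4 were lower. Rpl7l1, a paralog of Rpl7, had 180, 168, 166, 169 and 191 CPM in the inputs and 87.2, 93.1, 81.8, 86.7 and 102 CPM in the coIP samples. Its log2 fold change of -0.94 (SE 0.08) stood beside -1.001 (SE 0.11) for Rpl7. For Rpl22l1 and Rpl22 the values were -0.87 (SE 0.16) and -0.67 (SE 0.08), and for Rpl36al and Rpl36a -0.79 (SE 0.32) and -0.91 (SE 0.13). Rps27l, which differs from Rps27 in a few residues, was lower with -0.997 (SE 0.16), whereas Rps27 was not called with -0.45 (SE 0.25). The difference between a paralog and its parent was not tested. Rpl3l, the form of Rpl3 in heart and skeletal muscle, had at most 0.76 CPM in any library of the coIP experiment, and Rpl3 was lower with -0.44 (SE 0.11).

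Counting by gene limits some members. More than 50% of the principal transcript is shared with another annotated gene in Rpl13a, Rpl23a, Rpl24, Rpl30, Rpl35, Rpl36al, Rps10 and Rps25, and reads there cannot be told apart without strand or are not assigned. Of these, Rps10 had 0.726 to 1.90 CPM in the Synpo+/+ control inputs. An annotated pseudogene at least 97% identical over at least 80% of the transcript was found for 15 members, with 16 for Rpl7a and 14 for Rps2. The 319 rows named as pseudogenes of ribosomal protein genes held counts equal to 0.529% to 0.635% of the members' counts in the inputs, 0.666% to 1.30% in the coIP samples and 0.245% to 0.471% in the regional libraries.

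Each coIP sample could be set against the input of its own lysate. Summed over the 84 members, the inputs of the Synpo+/+ control cultures had 12568 to 16472 CPM and the coIP samples 6284 to 9627 CPM. The coIP sample held 0.472, 0.673, 0.471, 0.609 and 0.662 times the level of its input, and every lysate showed the same direction. Of 78 members with a mean of at least 5 CPM in these inputs, 75 to 78 were below the input in each of the 5 lysates, against 53.5% to 56% of all genes at that level. For 69 of the 78, all coIP samples lay below all inputs, which held for 27.8% of all genes at that level, and 0 members had all coIP samples above all inputs, against 20.2% of those genes.

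**Figure D2:**
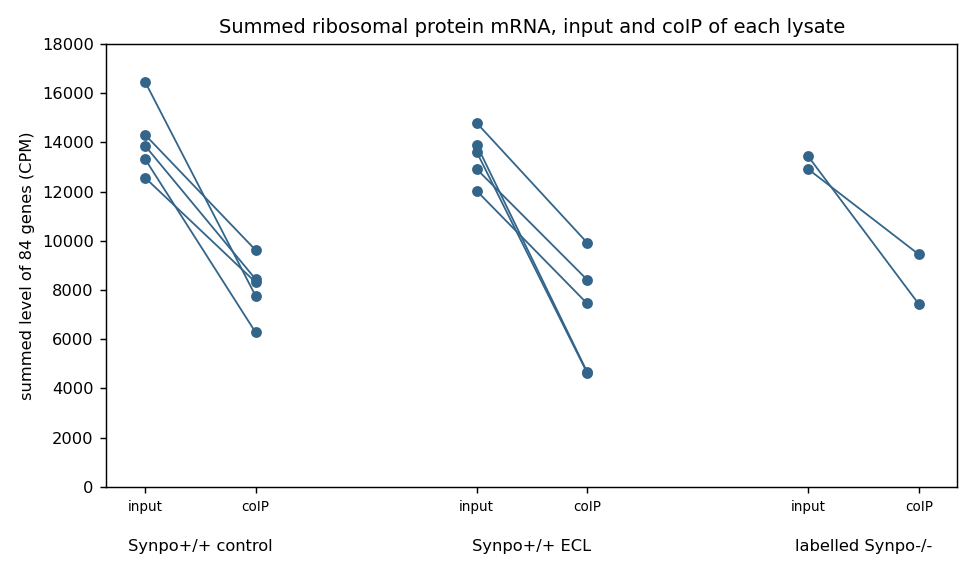
Summed level of the 84 members in CPM (vertical axis) in the input and the coIP sample of each lysate (horizontal axis), with lines joining the samples of 1 lysate, matched by library number in the libraries labelled Synpo-/-. All 12 lines fall from input to coIP, and the steepest falls are in 2 of the lysates after ECL.

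In Synpo+/+ cultures after ECL, 73 of 81 members tested were lower in the coIP and 0 were higher, against 27.8% and 30.5% of 18229 genes. The median was -0.998, against 0.02 for all genes. Rpl23 had 183, 200, 156, 196 and 213 CPM in the inputs and 83.6, 48.0, 81.5, 42.2 and 103 CPM in the coIP samples, again without overlap. Its log2 fold change was -1.39 (SE 0.20). By role, 41 of 43 large subunit genes, 27 of 31 small subunit genes, 2 of 3 stalk genes and 3 of 4 paralogs tested were lower, and Rplp1 was the stalk gene not called (-0.39, SE 0.22). The lysates were less alike than without a lesion, since lysates 2 and 4 had 0.336 and 0.340 times the input in the coIP and the other lysates 0.619 to 0.671 times. All coIP samples lay below all inputs for 54 of 78 members, against 29% of all genes at that level, and above them for 0, against 21.1%.

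The effect of the lesion on the coIP itself was tested as the difference of both log2 ratios, ECL minus control. No gene passed among 19581 tested by edgeR (0%) or by DESeq2, where 434 genes but no member had an unadjusted p under 0.05 by edgeR. The median difference over the 82 members tested was -0.07. For Rpl23 the values were -1.36 without and -1.39 with the lesion, and for Rpl7l1 the difference was -0.15 with a 95% interval of -0.44 to 0.14. These comparisons share no library, and within each of them the order of the members was similar (Pearson's r = 0.928 across 78 members, a description across genes, which share libraries and are not independent).

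In the libraries labelled Synpo-/-, 64 of 83 members were lower in the coIP than in the input and 0 were higher, against 16.4% and 15% of 20892 genes. The median was -0.74, against 0.02 for all genes. Rpl23 had 193 and 209 CPM in the inputs and 110 and 77.6 CPM in the coIP samples, so the pairs did not overlap, and its log2 fold change was -1.13 (SE 0.17). The lowest values called were those of Rpl21 with -1.19 (SE 0.15), a protein of the large subunit, and Rpl29, also of the large subunit, with -1.17 (SE 0.16). The labels give these libraries a library number and a replicate number that conflict, and samples were matched by library number. The coIP samples then held 0.732 and 0.553 times the summed level of the matched inputs, and 0.704 and 0.575 times when matched the other way round. By library number, 73 and 74 of 78 members were below the input, against 54.2% and 53.6% of all genes at that level, and the other way round 71 and 78 were. Both coIP samples lay below both inputs for 71 of the 78, against 40.9% of those genes, and above them for 0, against 32.8%. With 2 samples per fraction, leaving out 1 library moved the number of lower members between 51 and 72, and 2 members were higher without coIP sample 2.

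The difference between the genotypes, Synpo+/+ control minus Synpo-/-, was tested in the same way. Total counts were 42886994 to 53682143 in the libraries labelled Synpo-/- and 12888443 to 26730691 in the Synpo+/+ control libraries, without overlap. Genotype and depth can therefore not be told apart in this comparison. No gene passed among 20621 by edgeR (0%), where 1511 had an unadjusted p under 0.05 and DESeq2 called 30 genes higher and 20 lower but no member. The members with an unadjusted p under 0.05 were Rpl38 and Rps28. The median difference of the 82 members tested was -0.17, and 70 of them were below 0. What share of all genes was below 0 is not given here, so that count has no baseline. For Rpl23 the 95% interval of the difference was -0.75 to 0.19, and for Rps14 -0.58 to 0.39, so differences within these bounds are not excluded. Across 78 members, the log2 fold changes of Synpo+/+ control and Synpo-/- had a Pearson's r of 0.627 (a description across genes).

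Of the 6 members above 0 in the Synpo-/- libraries, none of them called, 4 had short mRNAs. The principal transcripts of the members are 345 to 5179 nt long with a median of 843 nt, and 10 are shorter than 500 nt (among them Rpl38, Rps27, Rps28 and Rps29), a limit chosen after the values were seen. In the Synpo-/- libraries, 5 of these 10 were lower, with a median of -0.31, against 59 of 73 longer members with a median of -0.75. In Synpo+/+ control cultures, 8 of the 10 were lower, and the medians of the short and the longer members were -0.84 and -0.84. Rps29, a zinc finger protein of the small subunit, had 45.8 and 36.5 CPM in the Synpo-/- inputs and 62.2 and 44.5 CPM in the coIP samples, with overlap, and its log2 fold change was 0.34 (SE 0.18, adjusted p 0.166 by edgeR). In the Synpo+/+ control cultures Rps29 had 36.5, 67.1, 47.6, 59.9 and 46.6 CPM in the inputs and 29.6, 50.9, 7.18, 42.7 and 25.3 CPM in the coIP samples. Rpl38, known for its part in translating Hox mRNAs, had 58.9 and 48.4 CPM in the Synpo-/- inputs and 70.5 and 46.9 CPM in the coIP samples. In the Synpo+/+ control cultures it had 56.1, 77.2, 56.5, 69.3 and 57.7 CPM in the inputs and 30.3, 49.4, 8.03, 38.9 and 28.5 CPM in the coIP samples, without overlap. For both genes, the coIP sample of lysate 3 was the lowest of its group. The differences between genotypes were -1.15 for Rpl38 (SE 0.52), -1.10 for Rps28 (SE 0.45) and -1.09 for Rps29 (SE 0.58), and none of them passed (adjusted p from 0.622 to 0.748 by edgeR).

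**Figure D3:**
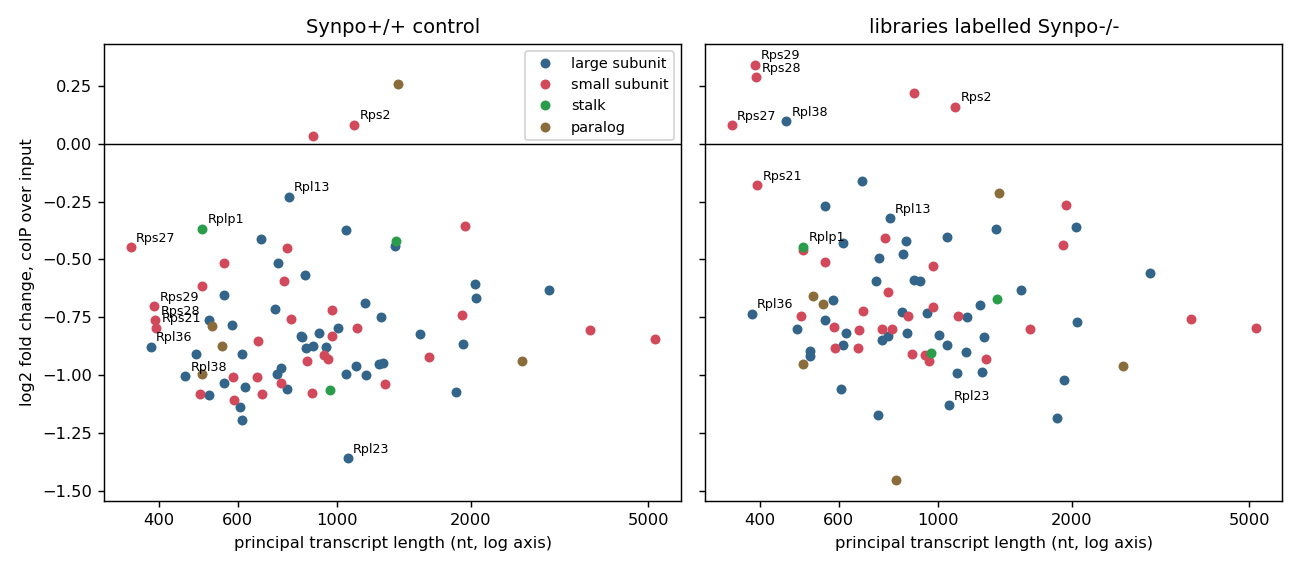
Log2 fold change of coIP over input (vertical axis) against the length of the principal transcript in nt (horizontal log axis) for the members tested, coloured by role, in Synpo+/+ control cultures (left) and in the libraries labelled Synpo-/- (right). On the right, Rps27, Rps28, Rps29 and Rpl38 lie above 0 at the short end, and on the left these genes lie between -1.01 and -0.45.

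As an alternative, the trends of the counts over summed exon length and GC content across all genes were removed from each library. Summed exon length counts all annotated exons of a gene (member median 1754.5 nt). It is not the length of the principal transcript (median 843 nt), so these fits did not correct for the transcript lengths above. In Synpo+/+ control cultures, 50 members were lower and 1 was higher with the length trend removed, at a median of -0.35, against 0.10 for all genes, and 20.5% of all genes were lower and 29% higher in this fit. With the trends over length and GC content removed, 52 were lower and 0 were higher, at a median of -0.40, against 19.4% and 28% of all genes. In the Synpo-/- libraries, 44 members were lower and 5 higher without the length trend, against 13.6% and 14.5% of all genes, and the median was -0.45, against 0.07 for all genes.

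The other genes of the translation machinery were taken from lists written from gene symbols, and their counts stand beside the 25.5% of all genes called lower and 29.6% called higher in Synpo+/+ control cultures. In Synpo+/+ control cultures, 70 of 77 genes of the mitochondrial ribosome were lower in the coIP and 0 were higher, with a median of -0.98. Of 30 initiation factors, 19 were lower and 7 higher, and of 6 elongation factors, 4 were lower and 2 higher. Eef1a1, the main elongation factor and itself a TOP mRNA, had -0.46 (SE 0.09), and Eef1a2, its neuronal counterpart, 0.61 (SE 0.16). Of 16 other TOP mRNAs, 11 were lower and 3 higher, with a median of -0.44. This list shares genes with those of the initiation, elongation and ribosome assembly factors, so the counts are not separate. Of 20 ribosome assembly factors, 13 were lower and 0 higher, with a median of -0.38. Of 12 genes of the mTOR pathway and LARP1, 7 were higher and 3 lower, with a median of 0.61. Of 39 pseudogene rows tested, 17 were lower and 5 were higher. Beside these, 4 of 12 microglia markers were lower and 0 were higher (median -0.35), and their part in the members' values was not tested. In the Synpo-/- libraries, 60 of 77 mitochondrial ribosomal genes and 16 of 30 initiation factors were lower, and 4 of 12 genes of the mTOR list were higher and 2 lower, against 16.4% of all genes lower and 15% higher.

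Within groups, Rpl13 varied more than any other member, in both experiments. Over 78 members in the coIP experiment, the median SD of log2 CPM within groups was 0.308, and Rpl13, a large subunit protein, had 0.987, with levels from 9.74 to 222 CPM. In the Synpo+/+ control inputs Rpl13 had 156, 208, 153, 148 and 89.1 CPM. In the Synpo+/+ inputs after ECL it had 19.2, 16.4, 19.0, 55.1 and 115 CPM. So 4 of the 5 lesioned inputs lay below all control inputs, and the fifth lay within their range. With 5 inputs per group the log2 fold change of Rpl13 was -1.74 (SE 0.47, adjusted p 0.0426 by edgeR), and it was the 1 member called lower of 82, with 0 higher, against 3.16% of 17951 genes called lower and 2.45% called higher. This call was lost on leaving out any 1 of the inputs, at log2 fold changes of -1.83 to -1.52, except for control input 5 (-1.89) and ECL input 5 (-2.48). The coIP samples after ECL had 23.0, 9.74, 16.02, 34.5 and 144 CPM, on both sides of their own inputs. Against the coIP samples of control cultures (77.9, 222, 93.4, 169 and 72.2 CPM) Rpl13 had -1.48 (SE 0.58) and was not called, and 0 of 80 members were by edgeR or DESeq2 (2 at an unadjusted p under 0.05), against 0.0921% of 18449 genes called lower and 0.222% called higher.

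**Figure D4:**
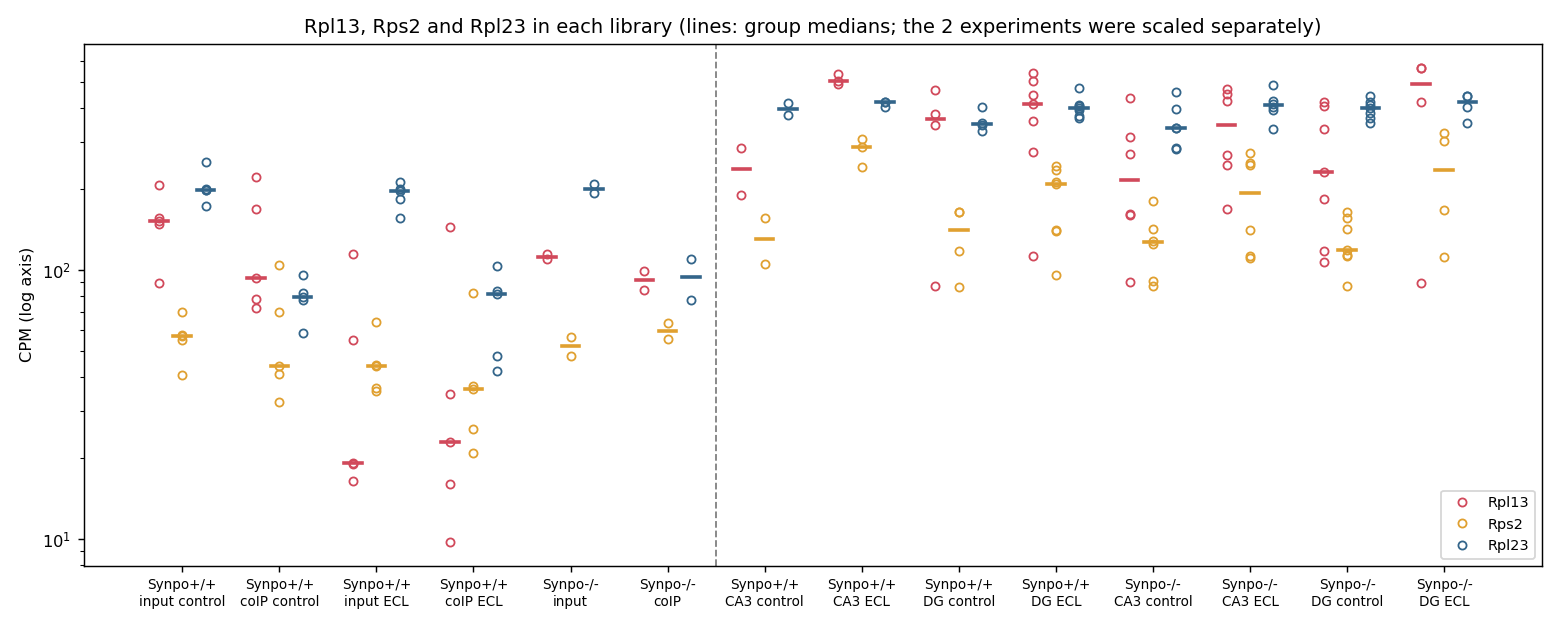
Level in CPM (vertical log axis) of Rpl13, Rps2 and Rpl23 in each library (open circles) and the median of each group (lines), for the 14 groups of both experiments (horizontal axis), which were scaled separately. Rpl13 spans 9.74 to 222 CPM in the coIP experiment and 86.9 to 565 CPM in the regional experiment, whereas Rpl23 spans 42.2 to 253 and 282 to 488 CPM.

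In the regional experiment, Rpl13 again ranked first of 79 members by its spread within groups (SD of log2 CPM 0.832, against a median of 0.164) and Rps2 second (0.481). The 7 DG libraries of Synpo+/+ cultures after ECL had 112 to 542 CPM of Rpl13 (median 415), and the 4 control libraries 467, 381, 345 and 86.9 CPM. The low libraries of Rpl13 were also low in Rps2. Synpo+/+ DG ECL library 7 had 112 CPM of Rpl13 and 95.7 CPM of Rps2, the lowest of its group in both, and Synpo+/+ DG control library 4 had 86.9 and 86.5 CPM, again the lowest in both.

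The lesion was then compared within each region. In CA3 of Synpo+/+ cultures, Rpl13 and Rps2 were the 2 members called higher of 82, against 1.5% of 22340 genes higher and 0.273% lower. Rpl13 had 285 and 190 CPM in the controls and 505, 490 and 535 CPM after ECL. Rps2 had 156 and 105 CPM in the controls and 287, 242 and 307 CPM after ECL. All 3 lesioned libraries lay above both controls for either gene. The log2 fold changes were 1.00 (SE 0.17, adjusted p 0.0307) and 0.98 (SE 0.18, adjusted p 0.0354 by edgeR), in the opposite direction from Rpl13 in the inputs above. The members as a whole had a median of 0.08, against -0.01 for all genes. Neither gene was called with the length trend removed, which moved the median of all genes by -0.14, and 0, 0 and 1 members were called without ECL library 1, 2 and 3. Beside them, 2 of 12 microglia markers and 9 of 77 mitochondrial ribosomal genes were higher.

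In DG of Synpo+/+ cultures, 5 of 83 members were higher after ECL and 0 lower, against 7.86% and 4.31% of 23720 genes, so the share of members was below that of all genes. These were Rplp0 (0.54, SE 0.13), Rps9 (0.43, SE 0.10), Rpl18 (0.36, SE 0.09), Rpl7a (0.36, SE 0.11) and Rpl7l1 (0.61, SE 0.16). Rplp0 had 428, 314, 405 and 395 CPM in the controls and 492 to 673 CPM (median 529) in the 7 ECL libraries. Rps9, a small subunit protein that affects the accuracy of decoding, had 314, 277, 299 and 297 CPM in the controls and 361 to 485 CPM (median 385) after ECL. In both genes the groups did not overlap. The median of all members was 0.13, against -0.003 for all genes. No member was higher with the length trend removed, which moved the median of all genes by -0.14, 2 were then lower, and 6 members were higher without DG ECL library 5. The number was 2 without DG ECL library 4, 3 without library 6, and 0, 1 and 1 without control library 2, 3 and 4. Beside these changes, 12 of 12 microglia markers were higher (median 1.18), with summed levels of 736 to 1098 CPM in the controls and 1742 to 2280 CPM after ECL, and 5 of 8 astrocyte markers and 18 of 77 mitochondrial ribosomal genes were higher. Mitochondrially encoded genes held 9.63% to 13.6% of the counts in the controls and 6.83% to 10.9% after ECL. Their part in the members' values was not tested.

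In Synpo-/- cultures, 0 of 81 members were called in CA3 after ECL, against 0.053% of 20772 genes higher and 0.0241% lower. There, 76 of 81 were above 0 with a median of 0.17, 20 had an unadjusted p under 0.05, and DESeq2 also called 0. The matching shares of all genes are not given here, so these uncalled values are not read as a shift of the members. In DG of Synpo-/- cultures, 1 member was higher and 1 lower of 82, against 5.17% and 3.36% of 23310 genes. Rps2 was higher (0.78, SE 0.23, adjusted p 0.0431), with 168, 111, 323 and 302 CPM after ECL and 87.3 to 165 CPM (median 118) in the 7 controls, and these ranges overlapped. Rps27 was lower (-0.39, SE 0.11, adjusted p 0.0349 by edgeR), with 424, 564, 445 and 480 CPM after ECL and 462 to 655 CPM (median 640) in the controls. Control library 1 was the lowest of the controls and the only one below an ECL library. The call of Rps2 was lost without any 1 of 7 of the 11 libraries and that of Rps27 without any 1 of 8, among them ECL libraries 3 and 4 and control libraries 3, 4, 6 and 7 for both. Of the microglia markers, 9 of 12 were higher. Mitochondrially encoded genes held 8.97% to 11.8% of the counts in these DG controls and 6.54% to 8.20% after ECL, without overlap. The part of these differences in the members' values was not tested.

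The regions differed in the ribosomal protein mRNAs of Synpo-/- control cultures. Of 81 members, 50 were higher in DG than in CA3 and 1 was lower, against 13.1% and 12.5% of 21408 genes. The median was 0.31, against 0.05 for all genes. In the large subunit 25 of 43 and in the small subunit 23 of 31 were higher, and none of the 3 stalk genes was called (0.14 to 0.18). Rps19, a small subunit protein that is mutated in Diamond-Blackfan anemia, had 479 to 667 CPM (median 559) in the 6 CA3 libraries and 687 to 957 CPM (median 835) in the 7 DG libraries, without overlap. Its log2 fold change was 0.65 (SE 0.09, adjusted p 1.13e-05 by edgeR). Rps27 had 254 to 476 CPM (median 375) in CA3 and 462 to 655 CPM (median 640) in DG, and its log2 fold change was 0.86 (SE 0.12). For Rps27, DG control library 1 was the only one below a CA3 library. Rpl9 followed with 0.46 (SE 0.07). Among the paralogs, Rps27l was higher (0.65, SE 0.11) like Rps27, and Rpl7l1 was lower (-0.33, SE 0.10) where Rpl7 was higher (0.25, SE 0.07). Rpl7l1 had 82.1 to 118 CPM (median 95.7) in CA3 and 58.3 to 86.8 CPM (median 72.5) in DG, and it was not called without CA3 control library 1 or 2. All DG libraries were above all CA3 libraries for 2 of 79 members with a mean of at least 5 CPM in the CA3 libraries (Rpl9 and Rps19), against 4.35% of all genes at that level.

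**Figure D5:**
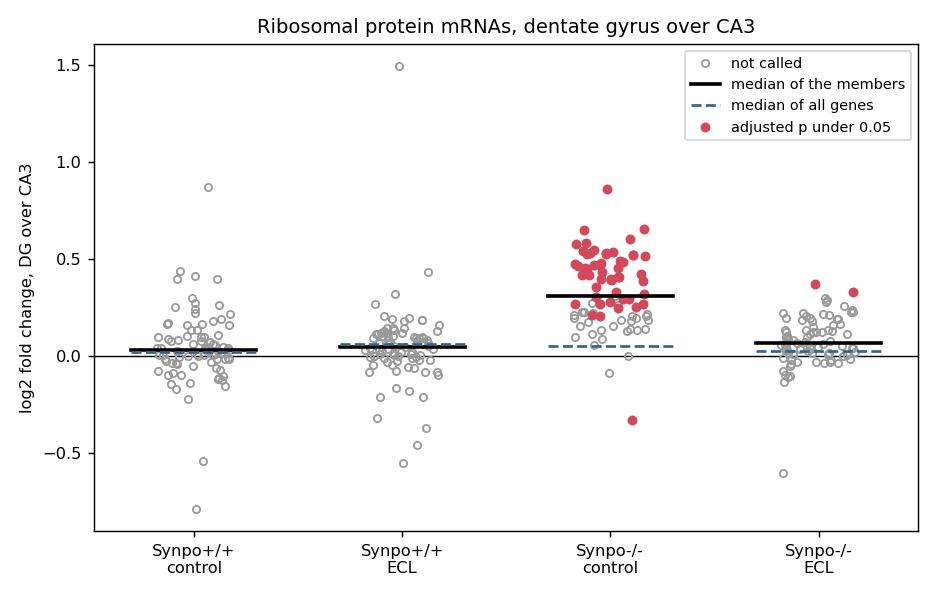
Log2 fold change of DG over CA3 (vertical axis) for each member tested, in Synpo+/+ and Synpo-/- cultures without and after ECL (horizontal axis). Filled circles are members with an adjusted p under 0.05, black lines are medians of the members and dashed lines medians of all genes, and in Synpo-/- control cultures the members' median of 0.31 stands above that of all genes at 0.05.

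Other genes moved with this comparison. All 4 granule cell markers were higher in DG (median 2.94), 4 of 5 CA3 pyramidal cell markers were lower (-1.09), and all 8 oligodendrocyte markers were lower (-1.30), with summed levels of 1788 to 2872 CPM in CA3 and 509 to 1498 CPM in DG. Mitochondrially encoded genes held 6.24% to 10.4% of the counts in CA3 and 8.97% to 11.8% in DG. The part of the cell types and of this share in the members' values was not tested. The mitochondrial ribosomal genes had 2 higher and 18 lower of 77. Across 78 members, the log2 fold change of DG over CA3 had a Pearson's r of -0.420 with log10 principal transcript length (a description across genes). Removing the trends over summed exon length and GC content raised the number of higher members from 50 to 70. The share of all genes called in that fit is not given, so the rise is not read as particular to the members. Leaving out 1 library gave 42 to 56.

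In Synpo+/+ control cultures 0 of 82 members differed between the regions, against 2.63% of 25656 genes higher in DG and 2.75% lower, with 2 members at an unadjusted p under 0.05, 0 called by DESeq2, and a median of 0.03. Rps19 had 478 and 532 CPM in CA3 and 737, 633, 665 and 600 CPM in DG, without overlap, and its log2 fold change was 0.40 (SE 0.14, adjusted p 0.137 by edgeR). In Synpo+/+ cultures after ECL, 0 of 83 members were called (1.54% of 24029 genes higher, 0.508% lower; 4 at an unadjusted p under 0.05, 1 called by DESeq2), and 1 was higher and 1 lower without DG ECL library 5. In Synpo-/- cultures after ECL, Rps18 (0.33, SE 0.10) and Rps19 (0.37, SE 0.10) were higher of 83, against 7.37% of 22767 genes higher and 6.24% lower, and the median was 0.07. No member was called without CA3 ECL library 3, DG ECL library 2 or DG ECL library 3, and 1 was without CA3 ECL library 2, 4 or 5 or DG ECL library 1 or 4. The differences between these regional values were tested too. Between the genotypes, Synpo-/- minus Synpo+/+ controls, 0 of 28235 genes passed (0%), with a median of 0.21 over 83 members and 6 at an unadjusted p under 0.05, and DESeq2 called 0 genes. Between control and ECL in Synpo-/- cultures, 0 of 83 members passed, against 0.24% of 25435 genes higher and 0.877% lower, with a median of 0.24 and 22 members at an unadjusted p under 0.05 (DESeq2 called 0 members). So the regional difference of the 50 members was not shown to depend on genotype or lesion. For these regional comparisons the share of all genes at an unadjusted p under 0.05 is not given, so the counts of members at that limit have no baseline.

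The genotypes were last compared in control cultures of each region. In DG 0 of 82 members differed, against 0.0124% of 24143 genes higher and 0.00414% lower, and 33 members had an unadjusted p under 0.05 (DESeq2 called 6, and edgeR 4 without Synpo-/- DG control library 4). The median of the members, Synpo-/- over Synpo+/+, was 0.16. Rplp0 had the smallest p, with 438 to 678 CPM (median 542) in 7 Synpo-/- libraries and 428, 314, 405 and 395 CPM in 4 Synpo+/+ libraries, a log2 fold change of 0.50 (SE 0.12) and an adjusted p of 0.207 by edgeR. In CA3 0 of 81 members differed, against 0.00413% of 24203 genes higher and 0% lower, with a median of -0.08, 19 members at an unadjusted p under 0.05 and 2 called by DESeq2. The share of all genes at that unadjusted limit is not given for DG or CA3, so the 33 and 19 members have no baseline. The CA3 comparison rests on 2 Synpo+/+ libraries. Rps29, for example, was not called although its interval of -1.15 to -0.36 lay below 0. With a block by replicate number, 5 members were higher and 15 lower in CA3. The labels do not say that the same number links libraries of both genotypes, and same-numbered libraries correlated at -0.0897 and 0.198. The share of all genes called in that fit is not given, so these calls are not read as a genotype difference.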

How the data were processed

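RNA was sequenced from 24 coIP and input libraries and 39 regional libraries. Per the labels and the study's methods, the authors trimmed reads with cutadapt 3.5, aligned them to mm10 (GRCm38) with STAR 2.7.8a and counted reads per gene with featureCounts 2.0.1, without regard to strand, and the deposited values are raw counts. Total counts per library set the precision and are given above. All columns were used.

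Levels are CPM on TMM effective library sizes, with 1 scaling for each experiment. Tests were two-sided and used edgeR 4.0.16 (R 4.3.3) with TMM, filterByExpr and the quasi-likelihood test on the groups compared, Benjamini-Hochberg adjusted over all genes, with 95% intervals of 1.96 SE. Alternatives were DESeq2 1.42.0, RLE size factors, no filter, pseudogene rows added to their parents, each library left out, a replicate block, and the removal of trends over summed exon length and GC content (lowess, span 0.3). A lysate gave both a coIP sample and an input, so numbers pair these, and deviations from group means correlated at 0.305 to 0.640 in Synpo+/+ control, 0.155 to 0.625 after ECL and 0.0867 in Synpo-/- lysates, where the library and replicate numbers of the labels conflict and the library number was used. The labels call the libraries of a group biological replicates without naming animals, so p-values cover the spread between libraries. No libraries agreed within sampling noise. The code was tested on simulated data.

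Named genes are the 4 highest and 4 lowest coIP values, members higher in the coIP, paralogs with parents, stalk genes, Rps27a, Rpsa, the smallest p of each regional comparison and members within 1 Mb of Synpo. Rpl38, Rps28, Rps29, Rpl21, Rpl29, Rpl4, Rpl24 and Rpl7a beyond this rule were named after their values were seen. Members and lists were chosen with earlier results of these data known. The comparisons of regions after ECL, of inputs and of coIP samples with lesion, the differences of regional ratios and the other matching of the Synpo-/- libraries were added after seeing the data. Of the members, 1 is counted but neither named nor plotted by name here.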

Additional observations from a re-analysis of the deposited data

Results flagged for a closer look

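Of 128 groups of 4 to 10 libraries examined, 9 held a library far from the others, and chance alone marks about 1 in 20 groups. In Synpo+/+ coIP samples after ECL, sample 5 was the highest for Rpl13 (144 CPM, group median 23.0 CPM) and for Rps2 (82.0 CPM, median 36.1 CPM). Among the inputs after ECL, input 3 was the lowest for Rpl38 (15.1 CPM, median 65.5 CPM). Among the Synpo+/+ control inputs, input 1 had the highest summed level of the 7 paralogs (326 CPM, median 283 CPM). Synpo-/- CA3 ECL library 6 was the lowest for Rplp0 (338 CPM, median 540 CPM) and for Rpl7l1 (49.4 CPM, median 99.8 CPM). Rpl7l1 also stood apart in Synpo-/- DG ECL library 4 (93.6 CPM, median 83.5 CPM) and in Synpo+/+ DG control library 2 (39.2 CPM, median 60.0 CPM). Rps27 was lowest in Synpo-/- DG control library 1 (462 CPM, median 640 CPM). The rows of ribosomal protein pseudogenes, which are no members, held counts equal to 1.30% of the members' counts in the highest coIP sample, against a coIP median of 0.805% and at most 0.635% in an input.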

How the results depend on the processing

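Lower members in the coIP numbered 50 to 77 in Synpo+/+ control cultures, 49 to 75 after ECL and 44 to 67 in Synpo-/- lysates over the alternatives, and 71 to 76, 69 to 77 and 51 to 72 with 1 library left out. Higher members there rose from 0 only as follows. With the length trend removed, 1, 1 and 5 were higher, and 2, 2 and 5 with the replicate block as well. With length and GC trends removed, 3 were higher in Synpo-/- lysates, and 3 with the block as well. With 1 library left out, 0 to 2 were higher in Synpo-/- and 0 in both Synpo+/+ comparisons. Rplp0 turned to 0.13 without the length trend (0.12 with the block), and Rplp1 to 0.42 (0.42 with the block) and, without length and GC trends, to 0.067 (0.073 with the block). The replicate block alone gave 77, 73 and 67 lower members and changed no count of coIP calls by over 1.5 times. Without the filter, 3 members were lower in the genotype difference of the coIP.

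In the regions, the labels do not say what a replicate number marks. Same-numbered libraries correlated at 0.0675 to 0.435 for DG and CA3 in Synpo-/- controls, with the same number the best match for 4 of 6, and at -0.349 to 0.409 in the other regional comparisons. With a block by number, higher and lower members were 3 and 0 for the lesion in Synpo+/+ CA3, 5 and 0 in Synpo+/+ DG, 0 and 0 in Synpo-/- DG, 56 and 1 for DG over CA3 in Synpo-/- controls, 5 and 15 for genotype in CA3, and 2 and 3 for DG over CA3 in Synpo+/+ after ECL. For the lesion in Synpo+/+ CA3 (2 higher), 0 were higher without the length trend or both trends, and 5 higher and 1 lower without the filter, with 0 to 3 higher and 0 to 1 lower when 1 library was left out. For the lesion in Synpo+/+ DG (5 higher), DESeq2 gave 9 higher and 1 lower, the length trend removed 0 and 2, both trends removed 0 and 1, and no filter 3 higher, with 0 to 6 higher and 0 to 1 lower on leaving out 1 library. For the lesion in Synpo-/- DG (1 and 1), 0 were higher by DESeq2 or without both trends, and 7 were lower without both trends, 2 without the length trend and 0 without the filter, with 0 to 1 of each on leaving out 1 library. DG over CA3 gave 2 higher without both trends in Synpo+/+ controls (0 to 1 with 1 library left out). In Synpo-/- controls it gave 42 to 56 higher and 0 to 1 lower with 1 library left out. In Synpo+/+ after ECL it gave 1 higher by DESeq2 or without both trends (0 to 1 of each with 1 library left out). In Synpo-/- after ECL it gave 0 higher without the filter and 1 with RLE size factors (0 to 2 with 1 library left out). The difference of control and ECL in that ratio gave 2 higher without both trends (0 to 2 with 1 library left out). Genotype in DG gave 6 higher by DESeq2 and 1 without the filter (0 to 4 with 1 library left out), and genotype in CA3 gave 1 higher and 1 lower by DESeq2 and 1 and 4 without the filter. The lesion in inputs gave 0 to 2 lower and in coIP samples 0 to 1 lower with 1 library left out. The cause of these changes was not tested. Members under about 5 CPM, such as Rps10, Rpl24 and Rpl3l, had too few counts for small differences to be detected.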
